A study of Mus musculus with 2 samples.

Results

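The vascular endothelial growth factor (VEGF) family was followed in single cells of amputated neonatal mouse digits through 10 genes, out of 33696 listed, whose symbols matched the names of its members. They comprised 5 ligands (Vegfa, Vegfb, Vegfc, Vegfd and Pgf), 3 receptor tyrosine kinases (Kdr, Flt1 and Flt4) and 2 neuropilin co-receptors (Nrp1 and Nrp2). All 10 had unique molecular identifiers (UMIs, counted transcript molecules) in both libraries. Hindlimb digits 2 and 4 of ICR mice had been amputated through the middle phalanx on postnatal day 3, and a microcarrier bead was placed in the wound on postnatal day 7. The bead carried FGF8 (500 ng/µl) in one group and BSA (0.1%) in the control group, and tissue distal to the bone stump was collected 24 h later, on postnatal day 8, with the epithelium removed. Each group was 1 library made from 20 digits of 5 mice of both sexes, so the bead, the pool of animals, the dissection and the library cannot be told apart, and no difference between the groups carries a test. According to the study, digits that would not have regenerated were probably part of the FGF8 pool.

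VEGF ligands are secreted dimers that bind receptor tyrosine kinases on the vessel wall. Vegfa signals mainly through Kdr (VEGFR2) in blood endothelium, Vegfb and Pgf bind Flt1 (VEGFR1), which also acts as a trap for Vegfa, and Vegfc and Vegfd bind Flt4 (VEGFR3), the receptor of lymphatic growth. Nrp1 and Nrp2 have no kinase and bind both VEGF ligands and class 3 semaphorins. In growing bone, hypertrophic cartilage is a known source of Vegfa, and vessels enter the cartilage from the surrounding tissue.

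The members lie on 8 chromosomes of the GRCm39 build and all are annotated as protein coding. Among the ligands, Vegfa is at chr17:46327919-46343309, Vegfb at chr19:6958447-6965127, Vegfc at chr8:54530257-54640131, Vegfd at chrX:163156240-163185646 and Pgf at chr12:85213409-85224564. Kdr (chr5:76093487-76139884) and Flt1 (chr5:147498414-147662826) share a chromosome, and Flt4 is at chr11:49500090-49543582. Nrp1 (chr8:129085085-129231082) shares chromosome 8 with Vegfc, and Nrp2 is at chr1:62742444-62857854. UMIs were read at the 3′ end of transcripts, so splice forms with the same 3′ end, such as those of Vegfa, were not separated. The 250 bases before the canonical start are shown for the ligand and the 2 receptors that the results turn on most, from the GENCODE M39 annotation, 5′ to 3′ on the gene's strand, with GC boxes (GGGCGG on either strand) in capitals. They are chr17:46343310-46343559 for Vegfa, chr5:76139119-76139368 for Kdr and chr5:147662822-147663071 for Flt1, each on the minus strand.
Vegfa: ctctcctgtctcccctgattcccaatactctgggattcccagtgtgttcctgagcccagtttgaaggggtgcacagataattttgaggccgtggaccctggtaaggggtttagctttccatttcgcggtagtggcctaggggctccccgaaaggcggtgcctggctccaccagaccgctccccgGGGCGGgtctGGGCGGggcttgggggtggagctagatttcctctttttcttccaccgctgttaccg
Kdr: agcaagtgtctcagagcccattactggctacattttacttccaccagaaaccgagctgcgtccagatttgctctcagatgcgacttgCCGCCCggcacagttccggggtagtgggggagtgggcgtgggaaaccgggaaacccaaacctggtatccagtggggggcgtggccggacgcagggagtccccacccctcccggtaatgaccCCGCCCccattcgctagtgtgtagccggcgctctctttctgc
Flt1: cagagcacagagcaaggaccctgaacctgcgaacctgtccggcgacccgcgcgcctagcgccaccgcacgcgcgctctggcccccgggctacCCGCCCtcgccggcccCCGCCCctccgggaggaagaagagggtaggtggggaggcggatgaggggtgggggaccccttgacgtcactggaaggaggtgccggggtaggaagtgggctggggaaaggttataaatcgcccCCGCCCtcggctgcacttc
The window held 2 GC boxes for Vegfa, 2 for Kdr and 3 for Flt1, and 6 of the 10 members had at least 1, against 36.3% of the 21757 protein-coding promoters of this length. The core ACGTG, which hypoxia-inducible factors bind, was not in these 3 windows on either strand but was in those of 4 members (Vegfb, Vegfd, Pgf and Nrp1), against 17.0% of all promoters. The core GGAA, bound by ETS factors, was in 9 of the 10 members' windows and in 93.9% of all, so its presence sets no member apart.

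The libraries held 3703 (BSA) and 7249 (FGF8) barcodes with a median of 14835 and 12285 UMIs, and 3252 and 6715 cells passed the filters. Only 6 barcode sequences occurred in both libraries. Cells fell into 23 clusters, of which 20 were named from marker lists and 3, with few UMIs per cell, were not. Of the cells that could be sexed by Xist or Y-linked transcripts, 79.3% were female in BSA and 24.6% in FGF8, so ratios within each sex are added to many of those below, as far as the sexed cells held 30 UMIs. A ratio printed without them was not shown to be alike in the sexes. Levels below are UMIs of a gene per 1000000 UMIs of the cell type (CPM), and ratios are log2 of FGF8 CPM over BSA CPM, with exact 95% intervals that cover counting error only. The 10 genes were left out of the features used for clustering, but genes that vary with them were not, so levels by cluster are a description.

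**Figure D1:**
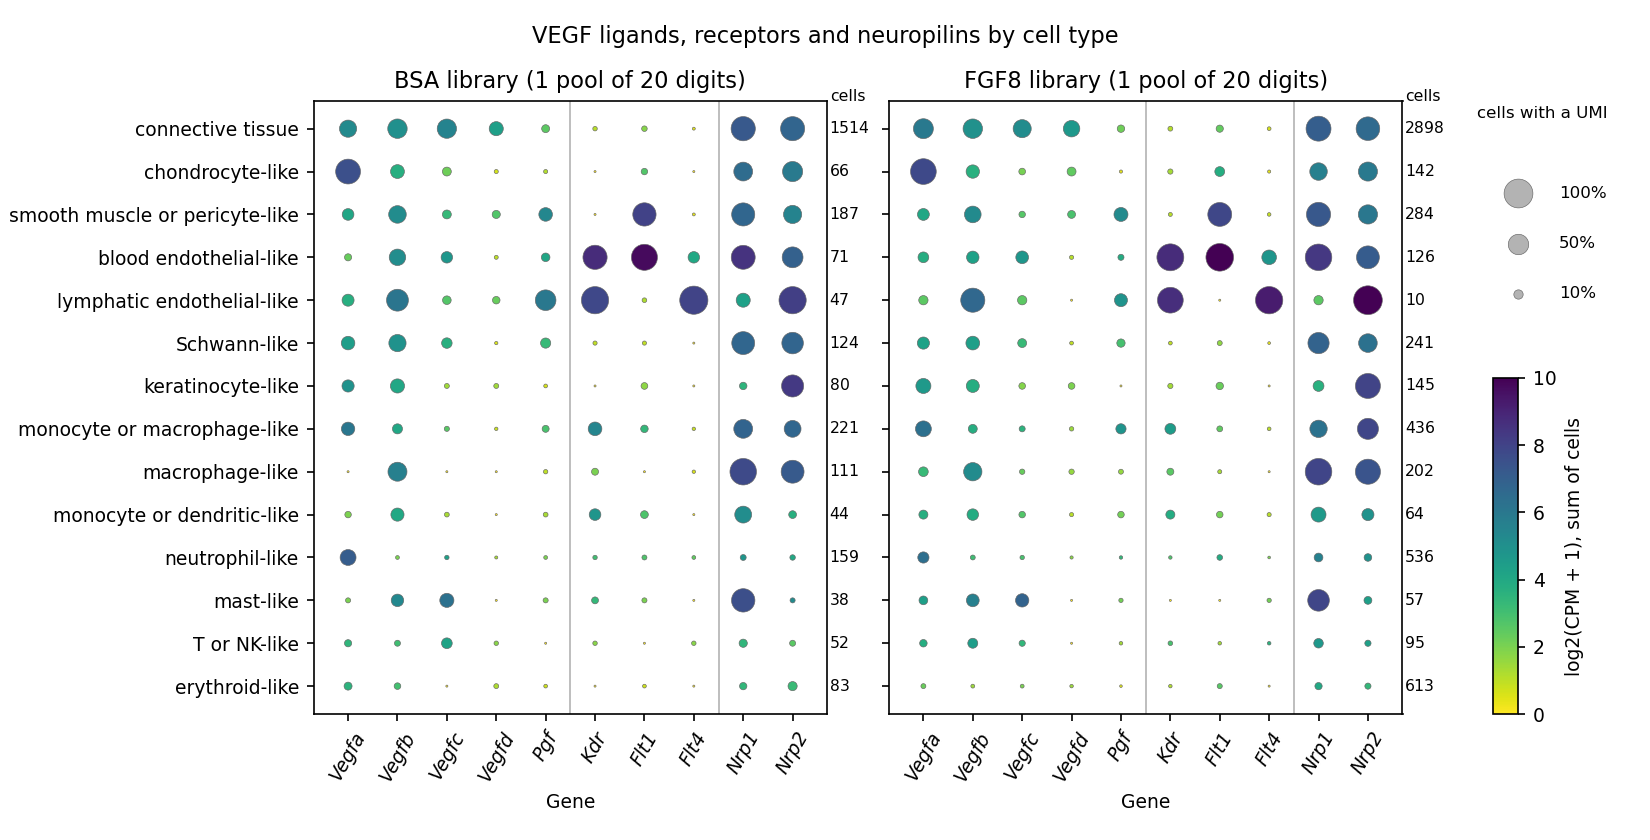
Dot plot of the 10 genes (columns) in each named cell type (rows) of the BSA library (left) and the FGF8 library (right); colour is log2(CPM + 1) of the summed UMIs, dot area the percent of cells with a UMI, and the number beside each row the cells. Vegfa was highest in chondrocyte-like cells, Kdr and Flt1 in blood endothelial-like cells, Flt4 in lymphatic endothelial-like cells, and the neuropilins were spread over most stromal types.

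Ligands other than Pgf were counted mostly in connective tissue cells (the fibroblast-like and tenocyte-like clusters, 1514 cells in BSA and 2898 in FGF8), and receptors mostly in vessel cells. Connective tissue cells held 61.5% (59.3 to 63.6%) of all Vegfa UMIs in BSA and 70.4% (69.2 to 71.6%) in FGF8, where these cells gave 63.7% and 66.0% of all UMIs. Their share was larger for the lymphatic ligands, at 87.7% and 84.3% of Vegfc UMIs and 93.4% and 92.1% of Vegfd UMIs. For Pgf it was 40.5% in BSA and 39.2% in FGF8. Endothelial-like cells, which were 3.72% of BSA and 2.11% of FGF8 cells, held 74.9% (71.8 to 77.8%) and 76.8% (74.3 to 79.2%) of Kdr UMIs.

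**Figure D2:**
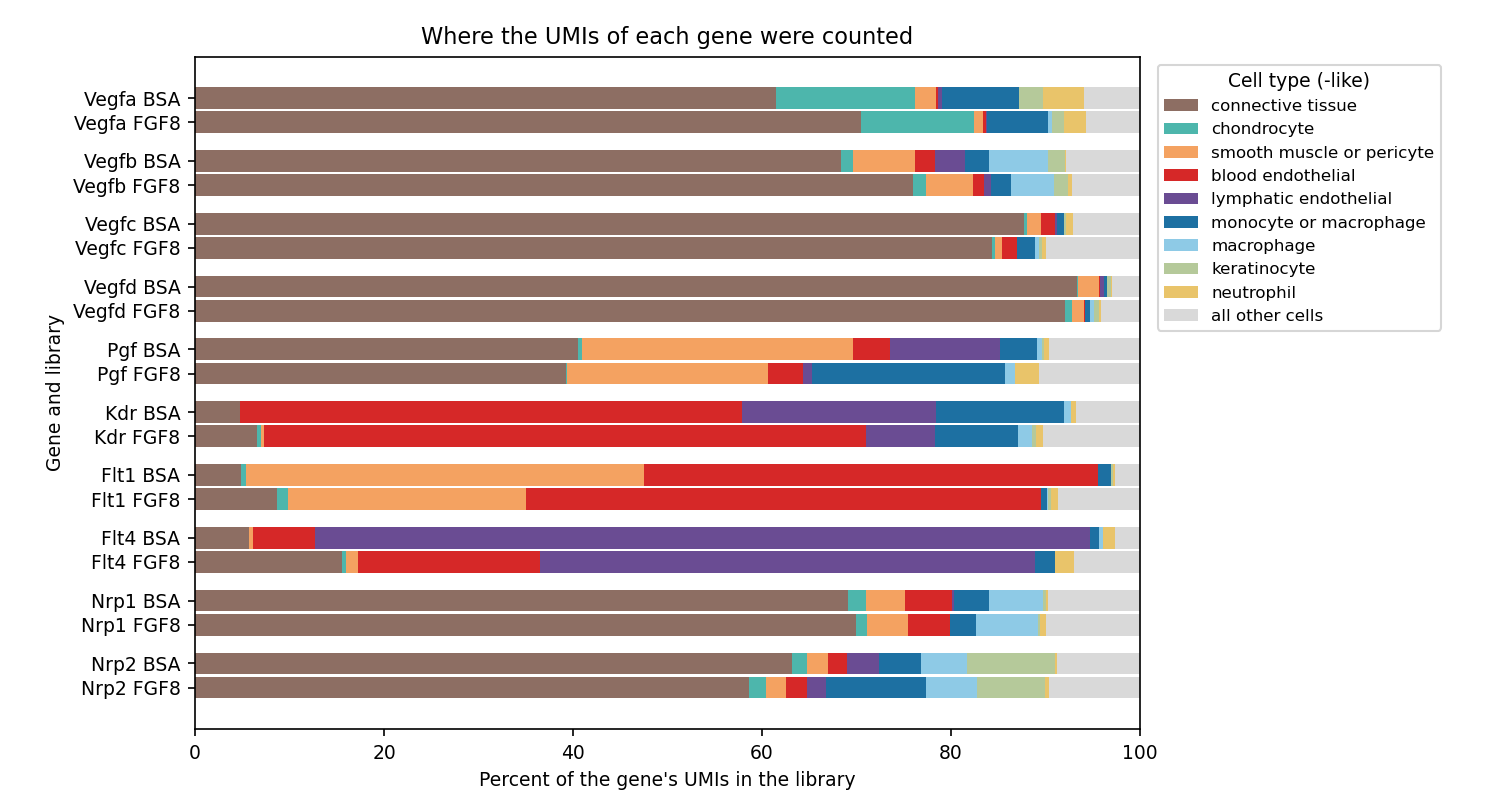
Stacked bars of the percent of each gene's UMIs found in each cell type, with the BSA library above the FGF8 library for each gene and grey for all other cells. Connective tissue cells (brown) took the largest piece of all 5 ligands and of both neuropilins in each library, while endothelial-like cells (red and violet) took most of Kdr and Flt4 and shared Flt1 with smooth muscle or pericyte-like cells (orange).

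Vegfa, the main angiogenic ligand, was highest in chondrocyte-like cells, with 186 CPM in BSA (304 UMIs in 66 cells) and 223 CPM in FGF8 (711 UMIs in 142 cells). The level there lay above that of every other type with at least 30 cells in each library, in both libraries, and the ratio was 0.26 (0.06 to 0.46). The ratio was 0.42 among female-called cells and -0.14 among male-called cells, of which BSA had 14. Chondrocyte-like cells with a UMI of Col10a1, the collagen of hypertrophic cartilage, had 252 CPM of Vegfa in BSA (16 cells) and 213 in FGF8 (38 cells). Those without had 144 (50 cells) and 228 (104 cells), so in FGF8 Vegfa was no higher where Col10a1 was found. This split was chosen after the values were seen. Cells with Col10a1 also had more UMIs, with medians of 45867 against 21784.5 in BSA and 29354.5 against 19825.5 in FGF8. The split therefore differs in depth as well.

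In connective tissue cells Vegfa stood at 36.6 CPM in BSA (1270 UMIs) and 61.3 CPM in FGF8 (4174 UMIs). The ratio was 0.74 (0.65 to 0.83), and it was 0.63 among female-called and 0.75 among male-called cells. A UMI of Vegfa was found in 35.3% of these cells in BSA and 47.5% in FGF8, and after each cell was thinned to 2000 UMIs in 4.91% and 9.18%. Erythroid-like cells, set beside them for comparison, had one in 7.23% (BSA, median 18691 UMIs) and 2.45% (FGF8, median 6983 UMIs), or 1.30% and 0.418% after thinning. The medians in connective tissue cells were 21771 and 20594 UMIs. The UMIs were unevenly spread: the tenth of connective tissue cells with the most Vegfa held 61.7% of them in BSA and 54.6% in FGF8.

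The level depended on the kind of connective tissue cell. Vegfa was lowest in the cluster led by Chodl and Sema3a, at 15.1 CPM in BSA and 19.7 in FGF8. It was highest in the cluster led by Prg4, the joint lubricant, and Mmp3, a matrix protease, at 70.7 and 87.8 CPM. The ratio was above 0 in all 7 clusters but ranged from 0.11 (-0.13 to 0.36) in the Agtr2 and Lpl cluster to 1.06 (0.81 to 1.32) in the cycling cluster led by H1f5 and Ube2c, where the levels were 32.9 and 68.6 CPM. The Fmod cluster of tenocyte-like cells gave 42.9 and 56.2 CPM, a ratio of 0.39 (0.19 to 0.59). With the 7 clusters weighted by their BSA cell numbers in both libraries, the ratio over connective tissue cells was 0.41 in place of 0.74, so the size of the difference moved with the mix of clusters.

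Other sources of Vegfa differed in direction. Neutrophil-like cells had 134 CPM in BSA (90 UMIs in 159 cells) and 83.0 in FGF8 (140 UMIs in 536 cells), a ratio of -0.69 (-1.09 to -0.29), which was -1.53 (-2.24 to -0.77) among male-called cells and turned to 0.26 when types were called cell by cell from the markers. In monocyte or macrophage-like cells, a cluster led by Ms4a4c, Fcgr1 and Ccr2, the levels were 66.3 and 79.4 CPM, a ratio of 0.26 (-0.01 to 0.53). Within each sex this ratio was larger, at 0.82 (0.41 to 1.23) for cells called female and 0.85 (0.14 to 1.66) for those called male. Macrophage-like cells, led by C1qa and Pf4, had the lowest mean Vegfa CPM of the 2 libraries among the 16 types compared. They had 0 UMIs in 111 BSA cells and 30 in 202 FGF8 cells. Their 8.72 CPM in FGF8 lay above the 3.89 CPM of erythroid-like cells in that library and below the 11.01 CPM of those in BSA. Whether it is background was not tested. Keratinocyte, Schwann and smooth muscle or pericyte-like cells had 15.6 to 29.7 CPM in the 2 libraries. An unnamed cluster with few UMIs per cell had 62.9 CPM in BSA and 103 in FGF8.

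**Figure D3:**
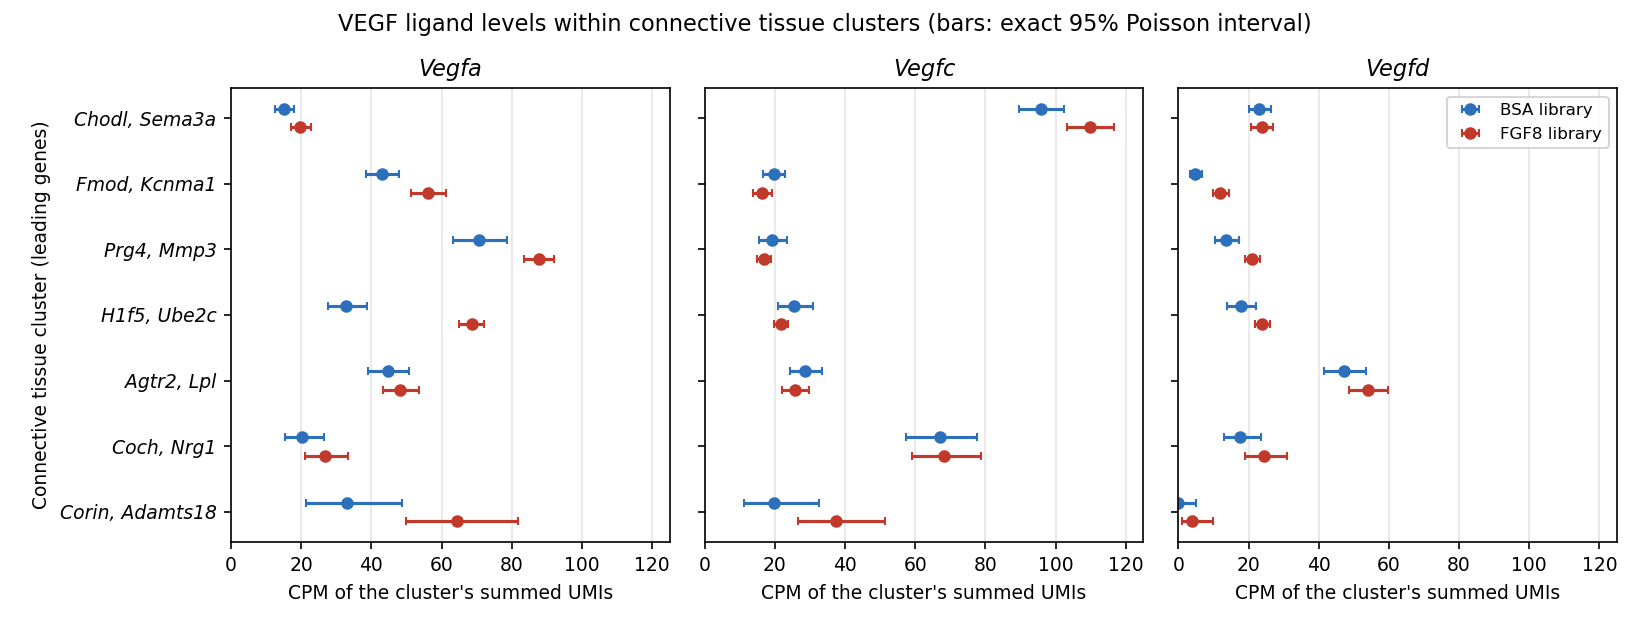
CPM of Vegfa, Vegfc and Vegfd (x axis) in the 7 connective tissue clusters (y axis, by leading genes) of the BSA (blue) and FGF8 (red) libraries, with exact 95% Poisson intervals as bars. Vegfa peaked in the Prg4 and Mmp3 cluster, Vegfc in the Chodl and Sema3a cluster and Vegfd in the Agtr2 and Lpl cluster, in both libraries.

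Vegfb, a ligand of Flt1, was at 31.1 CPM in BSA (1079 UMIs) and 30.8 in FGF8 (2095 UMIs) in connective tissue cells, a ratio of -0.02 (-0.12 to 0.09). It was the ligand with the least difference there, and a UMI was found in 45.2% and 45.3% of the cells. Smooth muscle or pericyte-like cells had 35.5 and 37.3 CPM, and macrophage-like cells 49.9 and 36.0 CPM. In blood endothelial-like cells the level was 34.2 CPM in BSA and 18.2 in FGF8, from 34 and 32 UMIs, with a ratio of -0.91 (-1.65 to -0.17).

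Vegfc, the principal ligand of Flt4, was highest in mast-like cells, at 75.4 CPM in BSA (25 UMIs in 38 cells) and 114 in FGF8 (34 UMIs in 57 cells). These levels overlapped only with those of 1 of the unnamed clusters among the types with at least 30 cells in each library. Connective tissue cells came next with 45.0 CPM in BSA (1561 UMIs) and 34.7 in FGF8 (2361 UMIs), a ratio of -0.38 (-0.47 to -0.28). Within them the Chodl and Sema3a cluster had 95.9 and 110 CPM, a ratio of 0.20 (0.06 to 0.33), and the Coch cluster had 67.0 and 68.3 CPM. The other clusters ranged from 16.3 to 37.5 CPM. The ratio was above 0 in 3 clusters and below 0 in 4 (Fmod -0.27, cycling -0.24, Prg4 -0.20 and Agtr2 -0.15), where each interval spanned 0. With the clusters weighted as in BSA the ratio over connective tissue cells was 0.09 in place of -0.38. Vegfa and Vegfc were thus highest in different clusters, and 13.8% (BSA) and 16.5% (FGF8) of connective tissue cells had UMIs of both.

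Vegfd, the other Flt4 ligand, was low in the named types outside connective tissue, with at most 6.31 CPM in any of them. An unnamed cluster with few UMIs per cell had 26.1 CPM in BSA and 28.6 in FGF8. In connective tissue cells Vegfd was at 19.9 CPM in BSA (688 UMIs) and 24.4 in FGF8 (1660 UMIs), a ratio of 0.30 (0.17 to 0.43). The Agtr2 and Lpl cluster, which also carried the adventitial marker Pi16, had the most, 47.2 and 54.0 CPM. The ratio was 0.69 (0.49 to 0.89) among female-called and -0.28 (-0.50 to -0.05) among male-called connective tissue cells, so the sexes had no common direction. The gene is X-linked, and whether this bears on the ratios was not tested.

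Pgf, a ligand of Flt1, had a higher CPM in some other types than in connective tissue cells, as Vegfa, Vegfb and Vegfc also had. Smooth muscle or pericyte-like cells had 40.0 CPM in BSA (116 UMIs) and 37.0 in FGF8 (135 UMIs), a ratio of -0.11 (-0.48 to 0.26) that was -0.24 among female-called and 0.42 among male-called cells. Lymphatic endothelial-like cells had 63.6 CPM in BSA, from 47 UMIs in 47 cells, and 28.3 in FGF8, from 6 UMIs in 10 cells. In connective tissue cells the levels were 4.73 and 3.67 CPM, a ratio of -0.37 (-0.66 to -0.07) that was -0.56 for cells called female and 0.13 for those called male. The difference was larger in monocyte or macrophage-like cells than in any other type with at least 30 cells in each library and 30 UMIs of Pgf. There it stood at 6.28 CPM in BSA (16 UMIs in 221 cells) and 27.0 in FGF8 (130 UMIs in 436 cells), a ratio of 2.10 (1.35 to 2.95). By sex the ratio was 2.20 (1.10 to 3.42) among female-called and 1.205 (-0.22 to 3.12) among male-called cells. The male-called BSA value rests on 4 UMIs in 30 cells. The UMIs sat in few cells: 5.43% of cells had one in BSA and 12.2% in FGF8, against 1.205% and 0.326% of erythroid-like cells, and the tenth of FGF8 cells with the most held 93.1% of them.

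Kdr, the main signalling receptor of Vegfa, was at 436 CPM in BSA (434 UMIs in 71 cells) and 437 in FGF8 (766 UMIs in 126 cells) in blood endothelial-like cells. The levels were nearly equal, with a ratio of 0.00 (-0.17 to 0.17), but UMIs were more concentrated in BSA, where the 7 cells with the most Kdr held 48.8% of them, against 31.6% in the 13 highest FGF8 cells. A UMI was found in 70.4% of BSA and 87.3% of FGF8 cells. With every cell weighted equally the ratio was 0.41, and with a stricter filter on cells it was 0.55. It was -0.26 (-0.53 to 0.02) among female-called and -0.085 (-0.36 to 0.20) among male-called cells. Lymphatic endothelial-like cells had 227 CPM (168 UMIs in 47 cells) and 415 CPM (88 UMIs in 10 cells). Connective tissue cells had 1.13 and 1.16 CPM, and smooth muscle or pericyte-like cells 0 UMIs in BSA and 4 in FGF8.

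Kdr was also counted in myeloid cells. Monocyte or macrophage-like cells had 43.2 CPM in BSA (110 UMIs) and 22.0 in FGF8 (106 UMIs), a ratio of -0.97 (-1.37 to -0.57), and 22.2% and 13.8% of the cells had a UMI. This ratio was -0.43 among female-called and -1.07 among male-called cells. In erythroid-like cells 0% and 0.979% had one. Other vessel genes were counted in monocyte or macrophage-like cells too. Flt1 was at 9.42 CPM in BSA and 4.36 in FGF8, a ratio of -1.11 (-2.03 to -0.20), and Pecam1, which monocytes also carry, at 27.5 and 31.4 CPM. The 6 other blood endothelial markers (Cdh5, Emcn, Cldn5, Egfl7, Esam and Ecscr) summed to 8.24 CPM in BSA and 15.2 in FGF8 in these cells, against 3280 and 3560 in blood endothelial-like cells. Of the cells with Kdr, 3 of 49 in BSA and 7 of 60 in FGF8 had a UMI of any of the 6, and of those without Kdr, 17 of 172 and 54 of 376. The part of vessel RNA in the Kdr values was not tested further. Monocyte or dendritic-like cells had 26.8 and 13.3 CPM of Kdr, while macrophage-like cells had 3.02 and 4.94.

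Flt1, the receptor of Vegfb and Pgf that also traps Vegfa, was at 857 CPM in BSA (852 UMIs) and 1048 in FGF8 (1839 UMIs) in blood endothelial-like cells. The ratio was 0.29 (0.17 to 0.41), and it was 0.20 (0.02 to 0.37) for cells called female and 0.12 (-0.08 to 0.32) for those called male. Kdr and Flt1 were found together in 64.8% of BSA and 81.0% of FGF8 blood endothelial-like cells. Smooth muscle or pericyte-like cells, defined by Rgs5, Myh11 and Abcc9, were the other site of Flt1, with 257 CPM in BSA (746 UMIs in 187 cells) and 233 in FGF8 (851 UMIs in 284 cells). The ratio of -0.14 (-0.28 to 0.0035) was -0.21 (-0.45 to 0.03) among female-called and 0.38 (0.10 to 0.67) among male-called cells. A UMI was found in 65.2% and 68.7% of them, against 1.205% and 2.61% of erythroid-like cells. Of the 6 vessel markers above, Cdh5, Emcn and Cldn5 were near 0 in that type, at 0.345 to 2.20 CPM over both libraries. Egfl7 was at 16.6 and 12.9 CPM, Ecscr at 44.2 and 57.6 CPM, and Esam, which mural cells also carry, at 306 and 235 CPM. Lymphatic endothelial-like cells had 1 Flt1 UMI in BSA and 0 in FGF8, so Flt1 was the receptor of blood and Flt4 that of lymphatic endothelial-like cells in both libraries, with Kdr in each. In connective tissue cells Flt1 was low, at 2.51 and 4.29 CPM, with a ratio of 0.77 (0.42 to 1.13) that was 1.46 for cells called female and 0.06 for those called male.

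Flt4, the lymphatic receptor, was at 253 CPM in BSA (187 UMIs in 47 cells) and 604 in FGF8 (128 UMIs in 10 cells) in lymphatic endothelial-like cells. A UMI was found in 45 of the 47 and 9 of the 10 cells, and UMIs of Flt4 and Kdr together in 41 and 8. The ratio of 1.25 (0.92 to 1.59) rests on 10 FGF8 cells, of which 7 were male-called, while 38 of the 47 BSA cells were female-called. It was 1.15 among female-called cells (3 in FGF8), -0.04 among male-called cells (2 in BSA), and -0.35 when types were called cell by cell. Blood endothelial-like cells had 15.1 and 26.8 CPM (15 and 47 UMIs), and no other named type had 30 UMIs of Flt4 except connective tissue cells, at 0.375 and 0.558 CPM. The cell numbers themselves, 47 of 3252 in BSA and 10 of 6715 in FGF8, come from 1 dissection each.

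Nrp1, which binds Vegfa with Kdr, was broad. An unnamed cluster with few UMIs per cell had the highest mean of the 2 libraries, 443 CPM in BSA and 326 in FGF8, and overlapped with blood endothelial-like cells. Blood endothelial-like cells had 371 CPM in BSA (369 UMIs) and 328 in FGF8 (576 UMIs), macrophage-like cells 215 and 245, mast-like cells 193 and 237, and connective tissue cells 149 and 133 CPM. Among these 4, macrophage-like and mast-like cells overlapped between the libraries, while blood endothelial-like cells lay above both. In mast-like cells the sexes went apart, with a ratio of 1.13 (0.32 to 1.91) among female-called cells (20 in BSA, 10 in FGF8) and -0.90 (-1.99 to 0.31) among male-called cells (4 and 19). Keratinocyte-like cells had 10.3 and 11.7 CPM, close to the 9.64 and 15.1 CPM of erythroid-like cells. In connective tissue cells the ratio was -0.17 (-0.21 to -0.12), and 0.04 with the clusters weighted as in BSA. The Agtr2 and Lpl cluster (247 and 300 CPM) and the Chodl and Sema3a cluster (242 and 234 CPM) had the highest levels. In smooth muscle or pericyte-like cells the level was 106 CPM in BSA and 153 in FGF8, a ratio of 0.53 (0.33 to 0.74) that was 0.69 for cells called female and 0.38 for those called male. In chondrocyte-like cells it was 89.9 and 50.1 CPM, a ratio of -0.84 (-1.18 to -0.51) that was -1.27 (-1.85 to -0.71) among female-called and -0.45 (-1.16 to 0.33) among male-called cells.

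Nrp2, the neuropilin that partners Flt4, was highest in lymphatic endothelial-like cells in FGF8 only, at 1052 CPM (223 UMIs in 10 cells). In BSA these cells had 282 CPM (208 UMIs), below the 322 CPM of keratinocyte-like cells. The ratio of 1.902 (1.62 to 2.18) was 1.68 among female-called cells, of which FGF8 had 3. It was -0.12 among male-called cells, of which BSA had 2. Flt4 and Nrp2 were found together in 41 of 47 and 9 of 10 of these cells. Among types with at least 30 cells in each library, keratinocyte-like cells had the most, 322 and 254 CPM, and lay above the rest in both libraries. These cells remained although the epithelium had been taken off. Connective tissue cells had 110 and 93.6 CPM, a ratio of -0.23 (-0.29 to -0.18), and the Coch cluster was highest among them at 264 and 238 CPM. In monocyte or macrophage-like cells Nrp2 was at 105 CPM in BSA (267 UMIs) and 238 in FGF8 (1146 UMIs). The ratio was 1.18 (0.99 to 1.38), with 1.13 for cells called female and 0.53 for those called male. A UMI was found in 33.9% and 53.2% of these cells, or 13.0% and 23.4% after thinning, against 1.30% and 1.25% of thinned erythroid-like cells. The macrophage-like cluster had 148 and 170 CPM, a ratio of 0.20 (-0.0022 to 0.41) without a common direction. Among female-called cells it was 0.43 (0.05 to 0.80), from 122 CPM in BSA and 165 in FGF8, and among male-called cells -0.60 (-0.93 to -0.26), from 261.4 and 172 CPM.

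Set side by side, none of the 10 members passed a log2 ratio of 1 in either direction in connective tissue cells, where 4.34% of the 17090 genes with at least 30 UMIs lay above 1 and 3.73% below -1. The members' median was 0.01 and that of all genes -0.08. The interval lay above 0 for Vegfa, Vegfd and Flt1 and below 0 for Vegfc, Pgf, Nrp1 and Nrp2, but it covers counting error only. The share of all genes with such intervals was not counted, so they set no member apart. Of these, Vegfd and Pgf turned in male-called cells, and Vegfc and Nrp1 with clusters weighted as in BSA. In blood endothelial-like cells 8 members had enough UMIs and none passed 1 either way, against 2.23% of 8547 genes above and 1.23% below. In monocyte or macrophage-like cells 3 of 8 lay above 1 (Pgf, Nrp2 and Vegfc), where the background was 4.1% of 10463 genes, and 1 of 8 below -1 (Flt1, from 24 and 21 UMIs), where it was 4.17%. The Vegfc value there rests on 13 and 52 UMIs. Of these 3 cell types, members past 1 were found in monocyte or macrophage-like cells only, in libraries without replicates. Types outside these 3 had members past 1 too, so this does not set the cluster apart. Nrp2 in monocyte or dendritic-like cells was at 1.33, from 8 and 27 UMIs, and Flt1 in chondrocyte-like cells at 1.26. Flt4 and Nrp2 in lymphatic endothelial-like cells also lay above 1. Below -1 lay Vegfa in erythroid-like cells. Kdr in monocyte or dendritic-like cells (-1.01) and Pgf in lymphatic endothelial-like cells (-1.17) did too, with intervals that spanned 0.

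**Figure D4:**
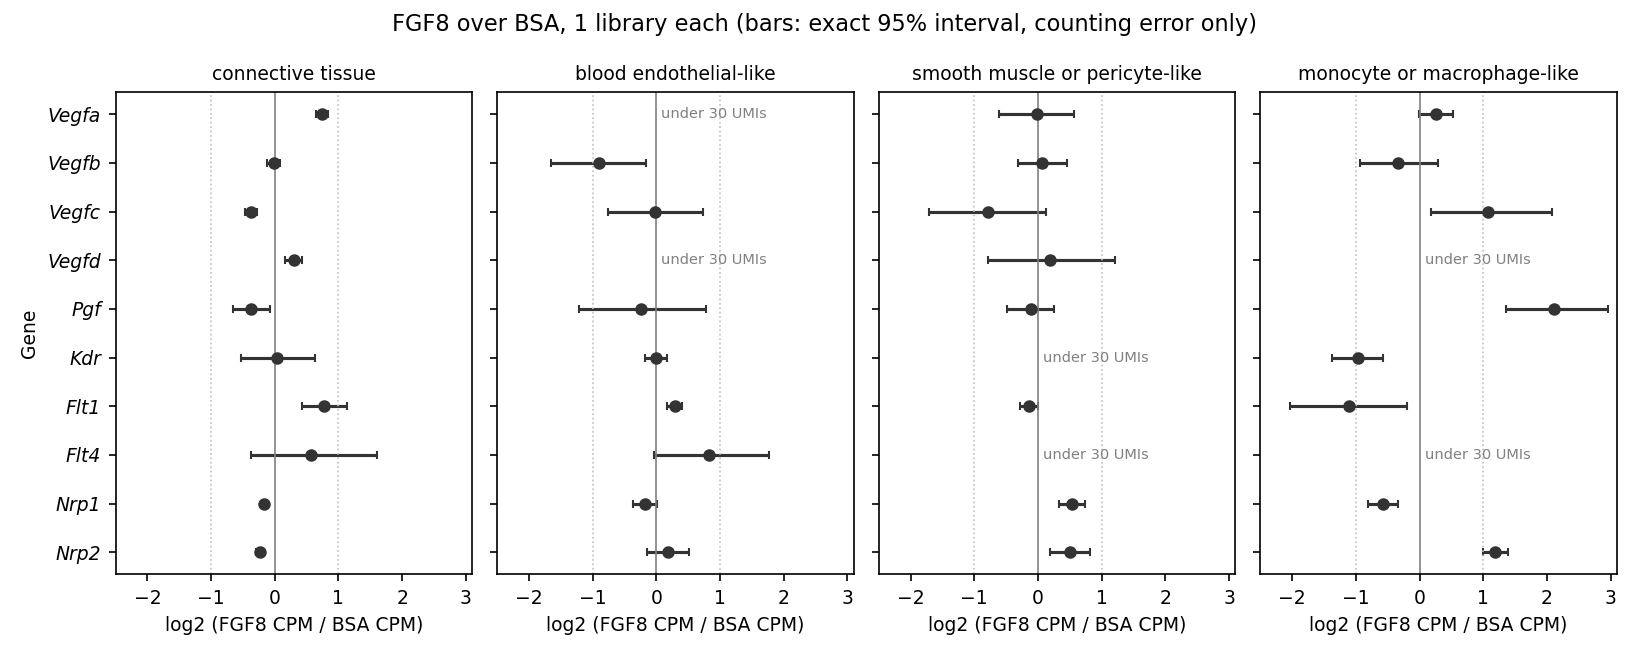
Log2 ratio of FGF8 over BSA CPM (x axis) for each gene (y axis) in 4 cell types, with exact 95% intervals for counting error; dotted lines mark 1 and -1. In connective tissue cells all 10 points lie between -0.38 and 0.77, and in monocyte or macrophage-like cells Pgf, Nrp2 and Vegfc lie above 1.

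The genes that act with the family were read from 7 lists, no test was made of the counts below, and their values were not weighted for the mix of clusters. Of all 17090 genes compared in connective tissue cells 42.5% had a ratio above 0 and 57.5% below 0, and in blood endothelial-like cells 53.6% of 8547 lay above 0, with a median of 0.03. Of the 7 hypoxia-responsive genes, all with enough UMIs in connective tissue cells, 5 had a ratio above 0, none passed 1, and the median was 0.57. Pgk1, a glycolytic enzyme and the most abundant of them, was at 162 CPM in BSA and 251 in FGF8, a ratio of 0.63 (0.58 to 0.67). The 7 regulators of the hypoxia response had a median of 0.21 with none past 1, and Hif1a, the oxygen-sensing transcription factor, was at 158 and 210 CPM, a ratio of 0.41 (0.36 to 0.45). Of the 12 semaphorins and plexins that share the neuropilins, 11 had a ratio below 0, and the median was -0.57. Sema3b, a secreted semaphorin, was the only one below -1, at 15.2 and 5.74 CPM, a ratio of -1.40 (-1.60 to -1.21). Of the 3 genes of VEGF-C processing none passed 1, 1 was above 0 and the median was -0.36. Ccbe1, which brings the protease to the ligand, was at 51.5 and 60.9 CPM, a ratio of 0.24 (0.16 to 0.32), while the proteases Adamts3, at -0.69 (-0.81 to -0.57), and Adamts14, at -0.36 (-0.52 to -0.19), were lower in FGF8. Both proteases were named after their values were seen. The 6 matrix genes that bind or oppose VEGF had a median of -0.15 in connective tissue cells, with 2 above 0 and none past 1, and Thbs2, an angiogenesis inhibitor, was at 426 and 260.6 CPM, a ratio of -0.71 (-0.74 to -0.68).

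In blood endothelial-like cells several of these lists stood otherwise than in connective tissue. The 6 matrix genes were all above 0 there, with a median of 0.85, and Vash1, an inhibitor made by endothelium, lay past 1 at 1.13 (0.32 to 2.03), from 16 and 62 UMIs. It was named after its value was seen. The hypoxia regulators had 1 of 7 above 0 and a median of -0.23. Of the semaphorins and plexins 6 had enough UMIs, with 4 above 0 and a median of 0.14. Of the hypoxia-responsive genes 6 had enough UMIs, with 3 above 0 and a median of 0.007. The difference between the cell types was not tested. In monocyte or macrophage-like cells Thbs2 was at 45.5 and 14.8 CPM, a ratio of -1.63 (-2.07 to -1.19). It was named after its value was seen. Other list genes past 1 in these cells were higher in FGF8: Ankrd37 at 1.24, Epas1 at 1.84 (4 and 27 UMIs) and Sema3c at 1.197 (12 and 52 UMIs). Thbs2 was more abundant in connective tissue cells and lower in FGF8 there too. The part of connective tissue RNA in its value was not tested.

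In blood endothelial-like cells 10 genes known to respond to VEGF all had enough UMIs, 6 were above 0, of which 1 lay above 1, 2 were below -1, and the median was 0.29. Egr3, an early response transcription factor, was at 2.01 CPM in BSA and 17.1 in FGF8, from 2 and 30 UMIs, a ratio of 3.09 (1.11 to 6.20). Cxcr4, a chemokine receptor of tip cells, was at 42.2 and 17.7 CPM, a ratio of -1.26 (-1.98 to -0.55). Unc5b, a guidance receptor of tip cells, was at 73.4 and 36.5 CPM, a ratio of -1.01 (-1.52 to -0.51). The list therefore had no common direction in these cells. Of 6 angiopoietin and Tie genes 4 had enough UMIs and none passed 1, and Ptprb, the phosphatase that restrains Tek, was at 449 and 329 CPM, a ratio of -0.45 (-0.63 to -0.27).

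Across 32 profiles (16 cell types with at least 30 cells in each library, times 2 libraries), 14543 other genes with at least 200 UMIs were compared with Vegfa and with Kdr by Pearson's r of log2(CPM + 10). These profiles share libraries and depth, and r is given as a description. Closest to Vegfa were Thbs1 (r = 0.85), Ptgs2 (0.83), Trps1 (0.80), P4ha1 (0.80) and Ier3 (0.80). Closest to Kdr were Cd300lg (0.91), Kank3 (0.90), Tie1 (0.90), Pecam1 (0.90) and Rasgrp3 (0.89).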

How the data were processed

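Single-cell RNA was captured with 10x 3′ chemistry, and the deposited UMI counts per gene and barcode had been made by the authors with Cell Ranger 9.0.0 on GRCm39, for barcodes called as cells; the filters of the paper had not been applied to them. A cell was kept if it had over 200 but under 7500 genes and a mitochondrial share of UMIs below 15%. Clustering was done in R 4.3.3 by Seurat 5.3.0, using sctransform 0.4.2 (SCTransform per library, CCA integration, 2959 of 3000 variable features, 30 components, resolution 0.8, seed 42), with the members, the pathway lists and sex genes left out of the features. Clusters were named from 17 marker lists by the mean marker level relative to the highest cluster, with at least 3 markers in 10% of cells. Clusters whose median UMI count was less than the library's median divided by 3, in both libraries, and that had none of their markers among the 10 leading genes (found in 50% of cells) stayed unnamed. Endothelial-like cells were called lymphatic with at least 4 of 5 lymphatic markers and blood with at most 1. The naming score and this split were set after seeing the data.

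UMIs were summed per cell type and library in Python 3.11.15 (pandas 2.3.3, scipy 1.17.1, numpy 2.4.6), and figures were drawn with matplotlib 3.10.9. Ratios needed 30 UMIs over both libraries, and intervals were Poisson, Clopper-Pearson or conditional binomial at 95%. They cover counting error only, and a count of 0 was given a floor of 3 counts. Connective tissue cells held 34652393 UMIs in BSA and 68102047 in FGF8. With 1 library per group no test was made. The ratio script was tested on simulated data. edgeR 4.0.16 gave TMM factors, and scanpy 1.11.5 Scrublet scores: doublets were not removed, since Scrublet called 0 cells in either library, and removing the highest scores (85 and 361 cells) was an alternative.

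The members, lists and rules were chosen with earlier results of these data known. Named are all members, list genes past a log2 ratio of 1 with at least 30 UMIs (up to 4 per list, else the most abundant 1) in connective tissue cells, or in blood endothelial-like cells for the VEGF-responsive and angiopoietin lists, and the 5 genes most like Vegfa and Kdr. In all 16 alternatives were tried, 2 of them chosen after seeing the data.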

Additional observations from a re-analysis of the deposited data

How the results depend on the processing

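No paired analysis was possible because each group was 1 library. The Vegfa ratio in connective tissue cells, 0.74, kept its direction under the 13 alternatives run for it: it was 0.58 with types called cell by cell, 0.97 after thinning, 0.63 in female-called cells, 0.84 with TMM scaling and 0.41 with clusters weighted as in BSA. The number of members above a log2 ratio of 1 there went from 0 to 1 (Flt1) with the stricter cell filter, with types called cell by cell and in female-called cells. The connective tissue share of Vegfa UMIs in FGF8 was 57.2% with the stricter filter, 53.7% cell by cell, 48.9% thinned, 64.0% female-called, 75.7% male-called and 72.4% without the highest Scrublet scores. In BSA it was 52.9% with the stricter filter, 58.2% cell by cell, 38.2% thinned and 65.3% female-called. The endothelial share of Kdr UMIs in FGF8 was 73.8% with the stricter filter, 80.1% female-called and 80.8% male-called, and in BSA 63.1% with the stricter filter and 63.4% thinned. The Kdr ratio in blood endothelial-like cells, 0.00, had no stable sign: 0.55 with the stricter filter, -0.27 cell by cell, 0.27 thinned, 0.41 with cells weighted equally and -0.26 female-called. The Flt1 ratio there was 0.55, 0.053, 0.65 and 0.42 under the first 4 of these and 0.12 male-called. Of the ratios whose interval excluded 0, some turned, with clusters weighted as in BSA for Vegfc (0.089) and Nrp1 (0.044) in connective tissue cells. Among male-called cells they turned for Vegfd (-0.28) and Pgf (0.13) in connective tissue cells, Vegfa in chondrocyte-like cells (-0.14), and Flt4 (-0.038) and Nrp2 (-0.12) in lymphatic endothelial-like cells. They turned after thinning for Pgf in connective tissue cells (0.058) and Nrp2 in keratinocyte-like cells (0.046). Cell by cell they turned for Kdr (-0.64) and Flt4 (-0.35) in lymphatic endothelial-like, Nrp1 in macrophage-like (-0.054) and Vegfa in neutrophil-like cells (0.26). Nrp1 in macrophage-like cells was -0.11 at resolution 0.4, and Nrp2 in smooth muscle or pericyte-like cells -0.28 in female-called cells. Sign changes of ratios whose interval spanned 0 are not listed here. The cause was not tested. The weighting by cluster and a looser lymphatic split were chosen after seeing the data.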
